A study of Rattus norvegicus and Mus musculus with 18 samples.

Results

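The genes described here are 48 genes of DNA replication, the G1 cyclins and mitosis. They were chosen by name from what their proteins do, with earlier results of these data known. In mouse, 47 of the 48 had at least 1 probe set annotated to that symbol alone, together 113 of 45037 probe sets, and all 47 passed the filter on dim probe sets. Ccnb1, the cyclin B1 gene, had no such probe set in mouse. The 3 rat array designs held single-symbol probe sets for 25, 12 and 13 of the genes, of which 23, 9 and 13 passed the filter, and 43 genes were present on at least 1 rat design. Each gene is represented by its single-symbol probe set with the highest mean signal.

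The embryonic (metanephric) kidney arises from the ureteric bud, whose epithelium branches at its tips and becomes the collecting duct tree, and the surrounding metanephric mesenchyme, which forms nephrons and stroma. Mouse tissue at E12.5 was separated into ureteric bud tips, ureteric bud stalks and metanephric mesenchyme, from pools of about 1000 tips, 350 stalks and 300 mesenchymes, and rat tissue at E13.5 into whole ureteric buds and metanephric mesenchyme, from about 1200 buds and 240 mesenchymes. The 18 Affymetrix arrays comprised 2 per tissue in mouse and 2 per tissue on each of 3 designs in rat. A digestion of 10 minutes is given for every sample, and no other treatment and no mutation is named in the labels. For each tissue 1 pooled RNA was labelled 2 times, so every p-value here reflects the spread of labeling and hybridization and holds nothing of the spread between animals.

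Before S phase, the minichromosome maintenance helicase Mcm2 to Mcm7 is loaded at replication origins by Cdc6 and Cdt1, and during S phase it unwinds DNA ahead of the polymerases, which are held on DNA by the sliding clamp Pcna that the replication factor C complex loads. Mitosis is driven by Cdk1 with A and B cyclins and by the Plk1 and Aurora kinases, and a checkpoint that includes Bub1, Bub1b and Mad2l1 holds back Cdc20 until chromosomes are attached. Genes of S phase are classical targets of E2F transcription factors, and many genes of G2 and mitosis carry a cell cycle homology region (CHR) together with CCAAT boxes in their promoters. In the developing kidney, ureteric tips are known as a zone of high proliferation.

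The promoters of both classes are shown because the arrays compare these classes with each other. RefSeq promoters of the rat build GRCr8, 250 bases before to 50 bases after the transcript start, were matched for 39 of the 48 genes. E2F-type letters (TTTGGCGC, TTTCGCGC, TTCCCGCC or TTGGCGCC on either strand, which can overlap one another) occurred in 14 of 20 promoters of replication genes (70%), in 1 of 15 promoters of mitotic genes with A and B cyclins (6.67%, Cdk1) and in 3.38% of all 27457 promoters of the table. The CHR letters TTTGAA occurred in 1 of 20 replication promoters (5%, Mcm2), in 9 of 15 mitotic promoters (60%) and in 18.1% of all promoters. CCAAT occurred in 60% of replication promoters, 73.3% of mitotic promoters and 37.7% of all promoters. A CHR and a CCAAT box stood together in 0 of 20 replication promoters, in 7 of 15 mitotic promoters (46.7%) and in 7.25% of all promoters. These matches of letters are descriptions and not binding sites, and a promoter without them lacks only these letters in this window.

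Below are the bases upstream of the start for 3 replication genes and 3 mitotic genes, 5′ to 3′ on the strand of the gene, with E2F-type letters, TTTGAA and CCAAT in capitals on either strand (TTCAAA and ATTGG on the reverse). Pcna, Mcm5 and Mcm6 were taken as the replication genes of highest mean mouse intensity with a motif upstream, among genes whose upstream bases lie mostly outside their own annotated span, and Cdc20 and Top2a by the same rule among mitotic genes. That rule left out Mcm7, which is brighter than Mcm5 and Mcm6 and holds E2F-type letters and CCAAT boxes, since 142 of its upstream bases lie inside its annotated gene. Cdk1, chosen after its values were seen, holds all 3 motifs. The regions in GRCr8 are chr3:139955821-139956070 (minus strand) for Pcna, chr19:13488563-13488812 (plus strand) for Mcm5, chr13:42404353-42404602 (minus strand) for Mcm6, chr5:137255800-137256049 (minus strand) for Cdc20, chr10:84473094-84473343 (minus strand) for Top2a and chr20:19265043-19265251 (plus strand) for Cdk1, whose 209 bases stop where its annotated gene begins.
Pcna: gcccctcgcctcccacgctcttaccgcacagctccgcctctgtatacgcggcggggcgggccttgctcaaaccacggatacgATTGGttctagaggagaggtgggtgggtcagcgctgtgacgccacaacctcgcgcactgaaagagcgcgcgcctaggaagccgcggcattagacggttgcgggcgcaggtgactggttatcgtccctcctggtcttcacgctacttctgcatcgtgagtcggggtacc
Mcm5: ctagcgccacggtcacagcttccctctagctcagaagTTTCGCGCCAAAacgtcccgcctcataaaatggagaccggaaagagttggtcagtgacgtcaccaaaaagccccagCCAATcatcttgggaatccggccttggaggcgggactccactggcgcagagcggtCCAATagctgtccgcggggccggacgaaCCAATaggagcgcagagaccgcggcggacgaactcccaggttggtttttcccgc
Mcm6: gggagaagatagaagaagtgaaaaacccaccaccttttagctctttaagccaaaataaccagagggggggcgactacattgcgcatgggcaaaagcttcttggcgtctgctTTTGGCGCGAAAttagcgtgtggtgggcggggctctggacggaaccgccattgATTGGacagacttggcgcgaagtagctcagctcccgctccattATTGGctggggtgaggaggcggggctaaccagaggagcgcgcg
Cdc20: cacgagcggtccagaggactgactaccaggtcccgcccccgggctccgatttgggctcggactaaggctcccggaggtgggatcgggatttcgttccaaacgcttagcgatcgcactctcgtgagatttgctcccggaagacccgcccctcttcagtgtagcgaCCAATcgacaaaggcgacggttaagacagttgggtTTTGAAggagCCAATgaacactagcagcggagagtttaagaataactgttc
Top2a: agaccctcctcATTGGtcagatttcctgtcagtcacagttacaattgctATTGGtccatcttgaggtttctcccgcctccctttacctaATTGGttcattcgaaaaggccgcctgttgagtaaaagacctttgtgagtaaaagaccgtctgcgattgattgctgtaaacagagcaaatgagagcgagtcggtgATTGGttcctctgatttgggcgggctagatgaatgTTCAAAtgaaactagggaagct
Cdk1: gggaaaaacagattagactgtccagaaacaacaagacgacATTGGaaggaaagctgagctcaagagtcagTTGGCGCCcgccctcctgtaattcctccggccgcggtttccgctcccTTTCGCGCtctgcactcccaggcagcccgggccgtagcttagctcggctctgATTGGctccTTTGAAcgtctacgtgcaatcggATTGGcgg
Mcm5 and Mcm6 each show a capital block in which 2 E2F-type matches overlap on opposite strands. In Cdc20 the single CHR lies between 2 CCAAT boxes, and in Top2a 4 CCAAT boxes precede the CHR. Pcna shows 1 CCAAT box and none of the E2F-type letters.

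**Figure D1:**
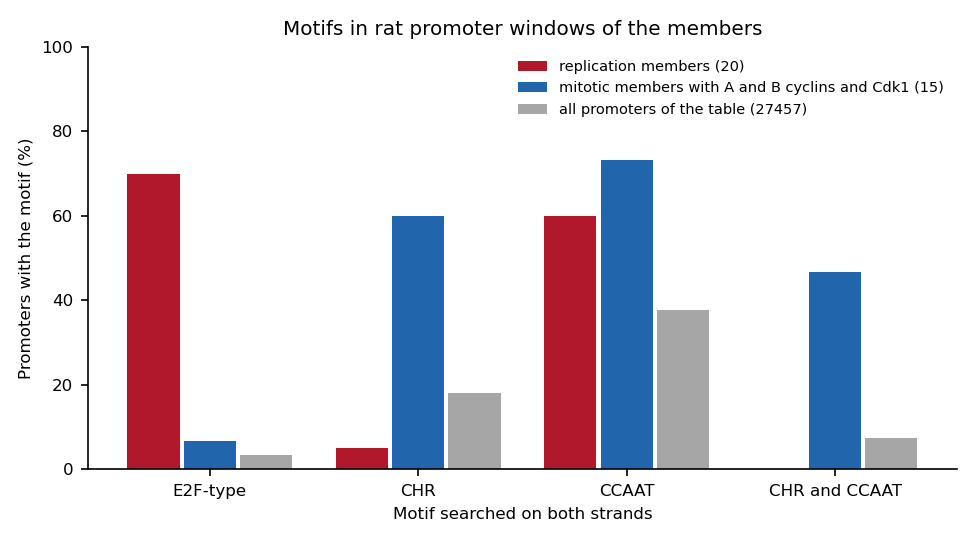
Percent of rat promoter windows (y axis) that hold each motif (x axis) for replication genes (n = 20), mitotic genes with A and B cyclins (n = 15) and all promoters of the table (n = 27457). The E2F-type bar of the replication genes stands at 70% against 6.67% for the mitotic genes, and the CHR bars stand the other way round, at 5% and 60%.

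The tissue labels were checked against markers. Summed intensities of 7 ureteric bud markers (Cdh1, Calb1, Krt8, Epcam, Gata3, Ret and Cldn3) were 23229 to 23642 in tips, 11939 to 12126 in stalks and 424 to 478 in mesenchyme. Summed signals of 7 stromal markers were 927 to 1179 in tips, 11482 to 11748 in stalks and 10410 to 10553 in mesenchyme, those of 6 endothelial markers 531 to 536, 1323 to 1364 and 2069 to 2088, those of 6 nephron progenitor markers 627 to 729, 1704 to 1762 and 5310 to 5390, and those of 7 erythroid markers 1723 to 1763, 4352 to 4431 and 8856 to 8928, in the same order. The stalk arrays thus carried stromal marker signal slightly above that of mesenchyme, and no mouse marker was listed at 0. In rat, 6 bud markers of the first design summed to 3937 to 4034 in buds, against 802 to 856 in mesenchyme. The second rat bud labeling had a Gapdh 3′ to 5′ signal ratio of 4.26 to 5.28 on the 3 designs, while the other arrays had 1.25 to 1.47. Its Actb 3′ signal was 2892 to 2978 against 8544 or more elsewhere. Some rat differences are therefore also given without it, and all other rat values rest on both bud labelings. Where only 1 array of a tissue is left, limma takes it to vary as the remaining arrays do.

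In mouse tips, 21 of the 47 genes were higher than in stalks and 2 were lower by limma (adjusted p under 0.05), where 15.9% of all 12359 tested genes were higher and 17.2% lower. The differences were small, from -0.33 to 0.52 on the log2 scale, and 0 of the 47 reached 2-fold, which 5.33% of all tested genes did. Their median difference was 0.17, against 0.057 over all tested genes. Both classes were called in the direction of tips: 10 of 22 replication genes and 9 of 17 mitotic genes with A cyclin, B cyclin and Cdk1 were higher and 0 of either were lower, with medians of 0.17 and 0.22. In the narrower group of Mcm, Rfc, Pola and Pcna genes, 7 of 15 were higher and the median was 0.17. In bulk RNA, fewer cycling cells and less of a transcript per cycling cell cannot be told apart. Alongside, all 7 bud markers were higher in tips. All 7 stromal and 6 endothelial markers, 5 of 6 nephron progenitor markers, 3 of 5 tested erythroid markers and 2 of 5 tested macrophage markers were lower in tips, 1 nephron progenitor marker was higher, and their part in these differences was not tested.

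Among the genes that license origins, 6 of 10 were higher in tips and 0 were lower. Mcm10, which helps to activate the helicase, had intensities of 442 and 499 in tips, against 355 and 357 in stalks, giving a log2 difference of 0.38 (SE 0.076, adjusted p = 0.00548). Cdc6, the helicase loader, had 725 and 716 in tips, against 563 and 552 in stalks, giving a difference of 0.36 (SE 0.052, adjusted p = 0.00101). In both genes each tip array lay above each stalk array, although the tested probe sets of Mcm10 did not all have the same sign. Mcm2, a helicase subunit, was at 1441 and 1529 in tips, against 1275 and 1311 in stalks, giving a difference of 0.20 (adjusted p = 0.0137), and Mcm3, Mcm7 and Gins1, the last a subunit of the active helicase, were higher by 0.24, 0.17 and 0.21. The subunits did not share 1 pattern: Mcm5 and Mcm6 had differences of 0.036 and 0.12 that did not pass. Mcm4 at -0.10 and Cdt1, which loads the helicase and is destroyed in S phase, at -0.17 were the 2 licensing genes whose tip arrays both lay below both stalk arrays. That pattern was held by 29.8% of all tested genes, and neither gene passed the test. The tested probe sets of Cdt1 also differed in sign.

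Of the clamp and clamp loader genes 3 of 6 were higher in tips. Pcna had 6889.6 and 6437 in tips, against 5799.6 and 5968 in stalks, giving a log2 difference of 0.18 (SE 0.047, adjusted p = 0.0209), and its arrays did not overlap. Rfc3 and Rfc4, subunits of the clamp loader, were higher by 0.17 and 0.27. Rfc2 and Rfc5 had differences of 0.17 and 0.17 and the large subunit Rfc1 one of -0.084, none of which passed. Among polymerase, primase and fork genes, 1 of 6 was higher. Prim1, the catalytic primase subunit that makes RNA primers, had 1313 and 1378 in tips, against 1057 and 1068 in stalks, giving a difference of 0.34 (SE 0.045, adjusted p = 0.000707). Its partner Prim2 had -0.046, the polymerase alpha subunits Pola1 and Pola2 had 0.025 and 0.17, the polymerase delta subunit Pold1 had 0.16 and the fork protection gene Timeless had -0.038, without passing. In nucleotide supply, the ribonucleotide reductase large subunit Rrm1 was higher by 0.14, while its small subunit Rrm2 (0.10) and the dim thymidylate synthase probe set of Tyms (0.37, SE 0.24) did not pass.

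Of the mitotic kinases and checkpoint genes, 6 of 7 were higher in tips, and in all 7 the tip arrays lay above the stalk arrays, a pattern held by 38.5% of all tested genes. Mad2l1, a core protein of the spindle checkpoint, had 2121 and 2128 in tips, against 1500.4 and 1459 in stalks, with 1581 and 1541 in mesenchyme. Its tip to stalk difference of 0.52 (SE 0.040, adjusted p = 2.63e-05) was the largest among the 47 genes. Plk1, a kinase of mitotic entry and spindle assembly, had 751 and 781 in tips, against 573 and 584 in stalks, giving a difference of 0.40 (SE 0.052, adjusted p = 0.000614). In both genes the tip arrays stood apart, and the stalk and mesenchyme arrays lay close together. Bub1b was higher by 0.33 (adjusted p = 0.00123), and Bub1 and the Aurora kinases Aurka and Aurkb by 0.22, 0.22 and 0.22. Cdc20, the activator of the anaphase-promoting complex, had a difference of 0.16 (adjusted p = 0.0619).

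All 3 genes measured for cyclin A2, cyclin B2 and their kinase were higher in tips. Cdk1 had 1707 and 1696 in tips, against 1319 and 1316 in stalks, giving a log2 difference of 0.36 (SE 0.046, adjusted p = 0.000484), with both tip arrays above both stalk arrays. Ccnb2 was higher by 0.31 and Ccna2 by 0.23. Of the structural genes of chromosomes and spindles, 0 of 7 passed the limma test, and 1 of the 7 had an unadjusted p under 0.05, as 43.6% of all tested genes did. Mki67, the gene of the Ki-67 proliferation antigen, had 1739 and 1628 in tips, against 1672 and 1560.1 in stalks, giving a difference of 0.058 (SE 0.051, adjusted p = 0.426), and its arrays overlapped. Top2a, the topoisomerase that untangles sister chromatids, had 2521 and 2390.3 in tips, against 2252 and 2339.7 in stalks, giving a difference of 0.10 (SE 0.043, adjusted p = 0.132). Birc5, Kif11, Kif20a, Tpx2 and Cenpe, which serve the chromosomal passenger complex, the spindle motors and the kinetochore, had differences of 0.055, 0.11, 0.16, 0.13 and -0.038.

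The G1 cyclins, which with Cdk4, Cdk6 or Cdk2 carry cells towards S phase, split in tips against stalks. Ccnd1 had 2462 and 2252 in tips, against 2029.7 and 1980.5 in stalks and was higher by 0.23 (SE 0.054, adjusted p = 0.0129). Ccnd2 had 3295 and 3484 in tips, against 3896 and 4100.3 in stalks and fell in tips, with a difference of -0.24 (SE 0.043, adjusted p = 0.00362). Ccnd3 had 783 and 881 in tips, against 1011 and 1087 in stalks and also fell in tips, with a difference of -0.33 (SE 0.065, adjusted p = 0.00539). In each D cyclin the tip and stalk arrays did not overlap, which held for 68.4% of all tested genes. The E cyclins Ccne1 and Ccne2 had differences of -0.026 and -0.067 with overlapping arrays.

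With either stalk array left out, fewer of the genes were called higher in tips, and so were fewer of all tested genes. No other array had as large an effect on either. Mcm10, Cdc6, Prim1, Ccnb2, Cdk1, Plk1, Bub1b and Mad2l1 were called with any 1 array left out, as was Ccnd2 among the lower genes, while Pcna had an adjusted p of 0.152, 0.0728 and 0.0661 without stalk array 1, stalk array 2 or tip array 1. The lower count rose without tip array 1 and fell without stalk array 2, as did the share of all tested genes. Without stalk array 2 Ccnd3 was not called.

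**Figure D2:**
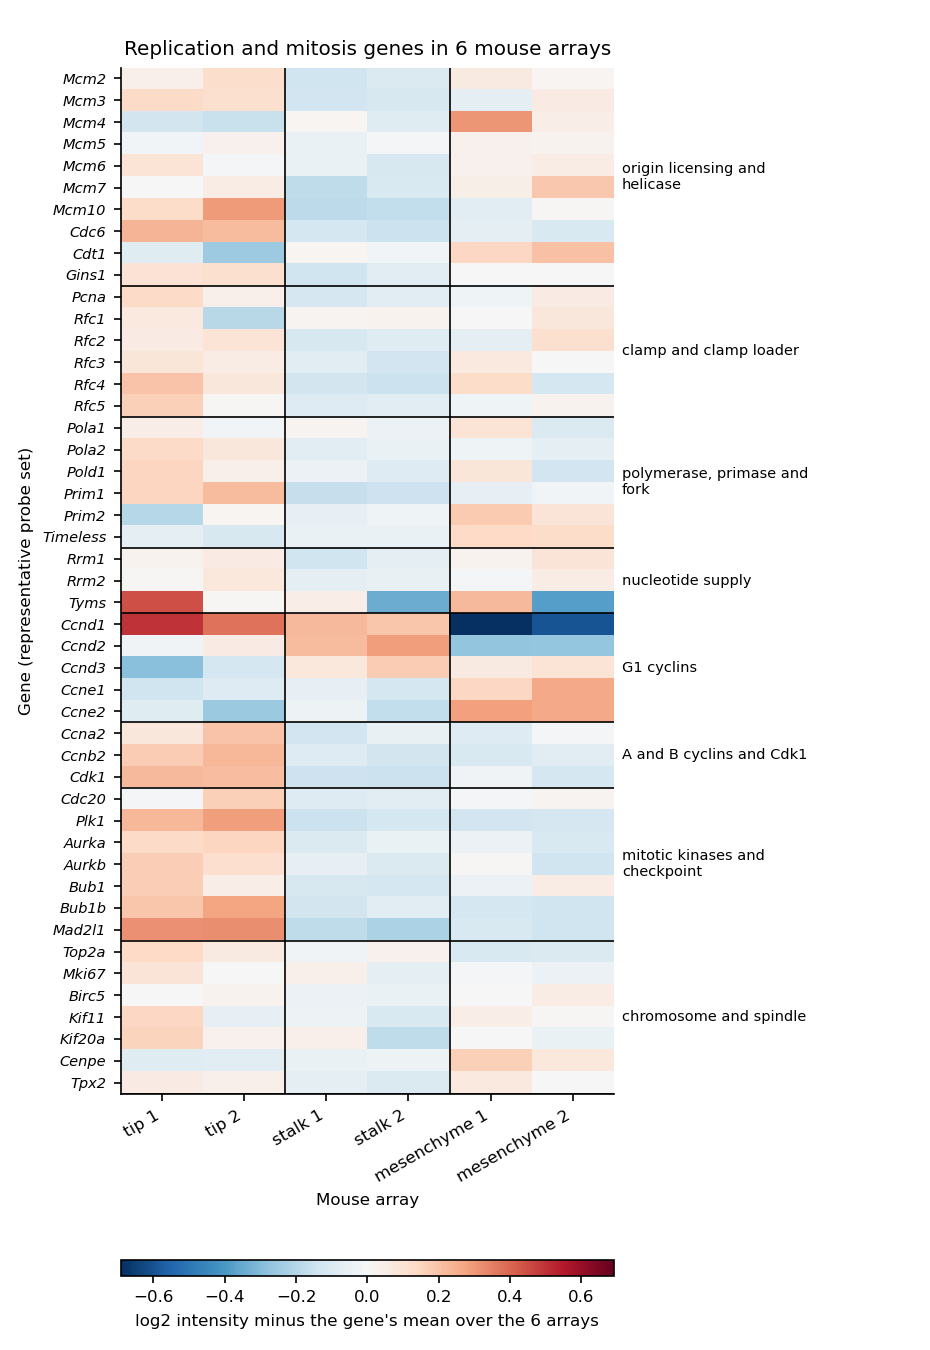
Log2 intensity of each gene minus its mean over the 6 mouse arrays (colour), with genes in rows ordered by role and arrays in columns. Mitotic kinases, Cdk1 and the A and B cyclins are red in both tip columns, and the G1 cyclins show opposite colours within their group.

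Against mesenchyme, 13 of the 47 genes were higher in tips and 7 were lower, where 18.4% of all tested genes were higher and 20.1% lower. The classes differed in their counts: 3 of 22 replication genes were higher and 3 lower, whereas 8 of 17 mitotic genes were higher and 1 was lower. Their medians were 0.049 and 0.19, beside 0.0060 over all tested genes, and the difference between the classes was not tested. This comparison shares its tip arrays with the tip to stalk comparison. In tips all 7 bud markers were higher, and all 6 nephron progenitor, 7 stromal and 6 endothelial markers and 3 of 5 tested erythroid markers were lower, than in mesenchyme. Of 5 tested macrophage markers 3 were lower and 1 was higher, and the part of these markers was not tested.

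Ccnd1 had the largest difference, with 2462 and 2252 in tips, against 1068 and 1139 in mesenchyme, giving a log2 difference of 1.08 (SE 0.054, adjusted p = 8.36e-07). It was the 1 gene of the 47 to pass 2-fold, as 4.65% of all tested genes did in this direction, and 2 further Ccnd1 probe sets were higher by 1.62 and 1.46. Ccnd2 had 3295 and 3484 in tips, against 2772 and 2783 in mesenchyme, giving a difference of 0.29 (SE 0.043, adjusted p = 0.000936). Ccnd3 was lower, with 783 and 881 in tips, against 1002 and 1026 in mesenchyme and a difference of -0.28 (SE 0.065, adjusted p = 0.00923). Both E cyclins, the partners of Cdk2 at the start of S phase, were lower in tips than in mesenchyme. Ccne2 had 372 and 328 in tips, against 485 and 476 in mesenchyme, giving a difference of -0.44 (SE 0.081, adjusted p = 0.00275), and Ccne1 differed by -0.32 (adjusted p = 0.00419). All 5 G1 cyclins thus passed the test, 2 higher and 3 lower, and in each the arrays did not overlap, as in 63.8% of all tested genes.

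Among licensing genes Cdc6 and Mcm10 were higher by 0.31 and 0.24, and Cdt1 and Mcm4 were lower. The tested probe sets of Mcm10 again differed in sign. Cdt1 had 1850.5 and 1648 in tips, against 2168 and 2265 in mesenchyme, giving a difference of -0.34 (SE 0.057, adjusted p = 0.00166), and Mcm4 differed by -0.32 (adjusted p = 0.0117). The other 6 licensing genes lay between -0.085 (Mcm7) and 0.12 (Mcm3). Mcm2 had 1441 and 1529 in tips, against 1466 and 1416 in mesenchyme, giving a difference of 0.042 (adjusted p = 0.569), with overlapping arrays. Of the clamp and clamp loader genes 0 of 6 passed the limma test and 0 of 6 had an unadjusted p under 0.05, which 46.4% of all tested genes had. Pcna had 6889.6 and 6437 in tips, against 6147 and 6534 in mesenchyme, giving a difference of 0.071 (adjusted p = 0.305), and tips overlapped mesenchyme. Prim1 was higher by 0.22 and Timeless lower, with a difference of -0.22, while 0 of 3 nucleotide supply genes passed the test or had an unadjusted p under 0.05.

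Mitotic genes made up 8 of the 13 genes that were higher in tips than in mesenchyme. Mad2l1 had 2121 and 2128 in tips, against 1581 and 1541 in mesenchyme, giving a difference of 0.44 (SE 0.040, adjusted p = 3.93e-05). Plk1 had 751 and 781 in tips, against 579.9 and 588 in mesenchyme, giving a difference of 0.38 (SE 0.052, adjusted p = 0.00049). Bub1b, a checkpoint kinase-like protein, had 1087 and 1151 in tips, against 875 and 863 in mesenchyme, giving a difference of 0.36 (SE 0.050, adjusted p = 0.000531). In these 3 genes each tip array lay above each mesenchyme array. Aurka, Cdk1, Ccnb2 and Ccna2 were higher by 0.21, 0.29, 0.30 and 0.19, and Top2a, with 2521 and 2390.3 in tips, against 2123 and 2132 in mesenchyme, by 0.20 (adjusted p = 0.00551). Cenpe, a kinetochore motor, was the 1 mitotic gene lower in tips, with a difference of -0.20 (adjusted p = 0.0287), and Mki67, with 1739 and 1628 in tips, against 1615 and 1587 in mesenchyme, differed by 0.071 (adjusted p = 0.349). With either mesenchyme array left out, fewer of the genes were called lower, and so were fewer of all tested genes. Mcm4 was not called without mesenchyme array 1, and Ccnd3 was not called without mesenchyme array 2.

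**Figure D3:**
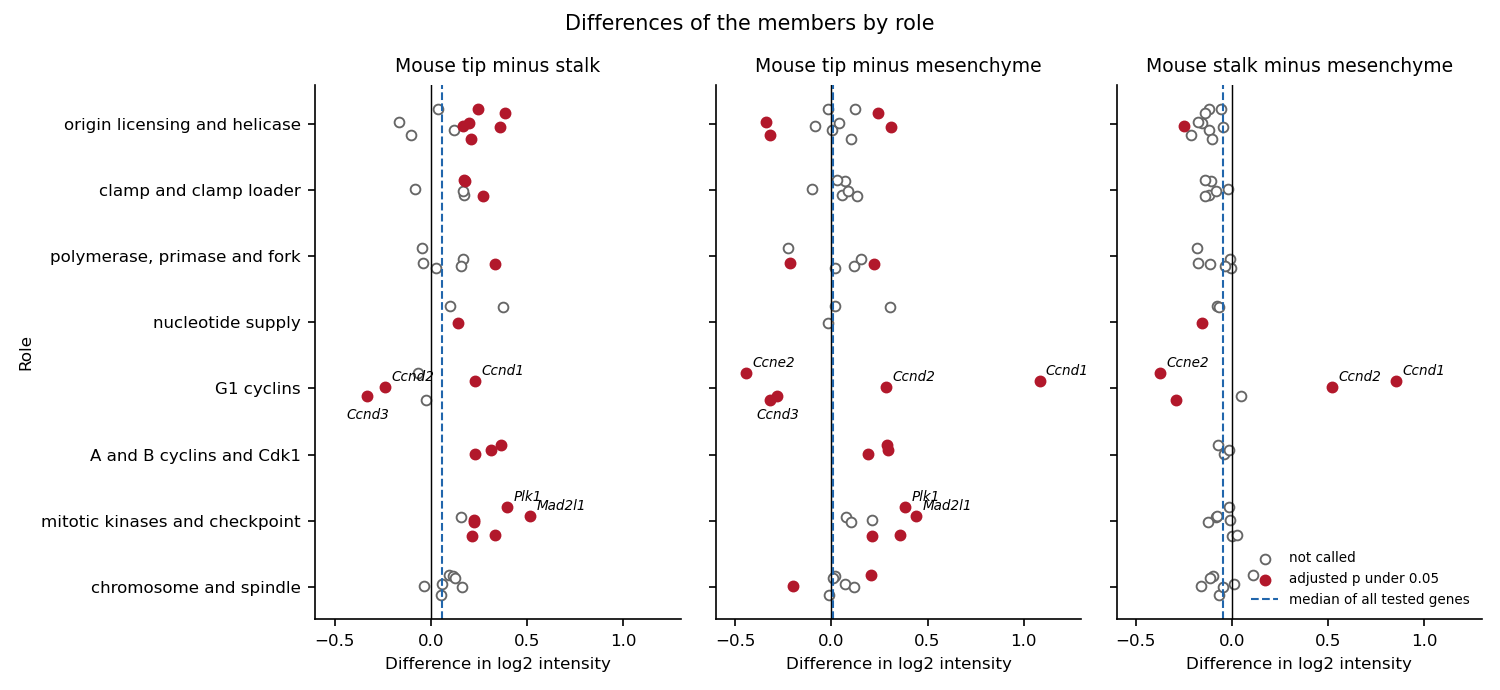
Differences in log2 intensity (x axis) of the 47 genes by role (rows) for tip minus stalk, tip minus mesenchyme and stalk minus mesenchyme. Filled points passed the test and the dashed line is the median of all tested genes, 0.057, 0.0060 and -0.046 from left to right. Mad2l1 is the furthest point to the right in tip minus stalk, at 0.52, and Ccnd1 in both others, at 1.08 and 0.85.

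Stalks against mesenchyme gave the fewest calls of the 3 mouse comparisons. In stalks 2 of the 47 genes were higher and 4 lower, where 9.91% of all tested genes were higher and 5.71% lower, and the median difference of the 47 was -0.082 beside -0.046 over all tested genes. All 22 replication genes had negative differences, from -0.25 to -0.0066 with a median of -0.12, where 4859 of 12359 tested genes had positive ones. Over all tested probe sets the median was -0.045 after quantile normalisation and -0.0096 in the values as deposited. The signs of the 22 genes in the deposited values were not counted. The tested probe sets of Rfc1 differed in sign. In 18 of the 22, both stalk arrays lay below both mesenchyme arrays, a pattern held by 36.4% of all tested genes. Of these 22 genes 1 passed the limma test, while 10 had an unadjusted p under 0.05, beside 28.6% of all tested genes. Among 17 mitotic genes 0 passed and 3 had an unadjusted p under 0.05, with a median of -0.045. This comparison shares arrays with both others, and in stalks the 7 bud markers were higher than in mesenchyme while 5 of 6 nephron progenitor, 4 of 6 endothelial and 3 of 5 tested erythroid markers were lower. Stromal markers were called in both directions (2 of 7 higher and 2 lower), as were macrophage markers (1 of 5 tested higher and 1 lower), and the part of these markers was not tested.

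Of the 6 passing genes 4 were G1 cyclins. Ccnd1 had 2029.7 and 1980.5 in stalks, against 1068 and 1139 in mesenchyme, giving a log2 difference of 0.85 (SE 0.054, adjusted p = 1.18e-05). Ccnd2 had 3896 and 4100.3 in stalks, against 2772 and 2783 in mesenchyme, giving a difference of 0.52 (SE 0.043, adjusted p = 6.21e-05). For both cyclins the stalk arrays were far above the mesenchyme arrays. Ccne2 had 385 and 349 in stalks, against 485 and 476 in mesenchyme, giving a difference of -0.38 (SE 0.081, adjusted p = 0.0163), and Ccne1 had 545 and 519.8 in stalks, against 628 and 684 in mesenchyme, giving a difference of -0.29 (SE 0.063, adjusted p = 0.0159). Ccnd3 had 1011 and 1087 in stalks, against 1002 and 1026 in mesenchyme, giving a difference of 0.047 (adjusted p = 0.709), with overlapping arrays. The lower E cyclins thus stood in stalks as in tips, each measured against the same mesenchyme arrays.

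Mcm7, a helicase subunit, had 4028 and 4229 in stalks, against 4669 and 5169 in mesenchyme, giving a difference of -0.25 (SE 0.053, adjusted p = 0.0144), and its 3 other single-symbol probe sets, all past the test, differed by -0.42 to -0.38. Rrm1 had 1802 and 1895 in stalks, against 2018 and 2112 in mesenchyme, giving a difference of -0.16 (SE 0.044, adjusted p = 0.05) at the edge of the threshold. Mcm2 had 1275 and 1311 in stalks, against 1466 and 1416 in mesenchyme, giving a difference of -0.15 (adjusted p = 0.0679), and Pcna had 5799.6 and 5968 in stalks, against 6147 and 6534 in mesenchyme, giving a difference of -0.11 (adjusted p = 0.197). In Mcm2 and Pcna both stalk arrays were the lowest of the 4 without passing. Top2a with 0.11 and Mki67 with 0.013 lay slightly on the other side. Top2a had 2252 and 2339.7 in stalks, against 2123 and 2132 in mesenchyme, and Mki67 1672 and 1560.1 in stalks, against 1615 and 1587 in mesenchyme. The tested probe sets of Top2a differed in sign, as did those of Ccnd3 and Bub1. Fewer genes were called lower with any stalk or mesenchyme array left out, and more with either tip array left out. The same held among all tested genes, while Ccnd1 and Ccnd2 were called throughout.

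Over the 3 tissues, the roles gave different orders. The median deviation of the 7 mitotic kinase and checkpoint genes from each gene's mean over the 6 arrays was 0.17 and 0.16 in tips, -0.11 and -0.10 in stalks and -0.038 and -0.11 in mesenchyme. For the 10 licensing genes it was 0.066 and 0.079 in tips, -0.13 and -0.10 in stalks and 0.028 and 0.034 in mesenchyme, so that stalks were low and tips close to mesenchyme. For the 5 G1 cyclins it was -0.085 and -0.091 in tips, 0.074 and 0.18 in stalks and 0.062 and 0.095 in mesenchyme, and behind that median Ccnd1 was highest in tips, Ccnd2 in stalks and Ccne1 and Ccne2 in mesenchyme. In order of level, Ccnd1 ran tip, stalk, mesenchyme and Ccnd2 stalk, tip, mesenchyme, each step past the test, although the Ccnd1 step of tips over stalks had an adjusted p of 0.0601 and 0.096 without stalk array 1 or 2, while for Ccne1 and Ccne2 tips and stalks did not differ beyond their spread.

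**Figure D4:**
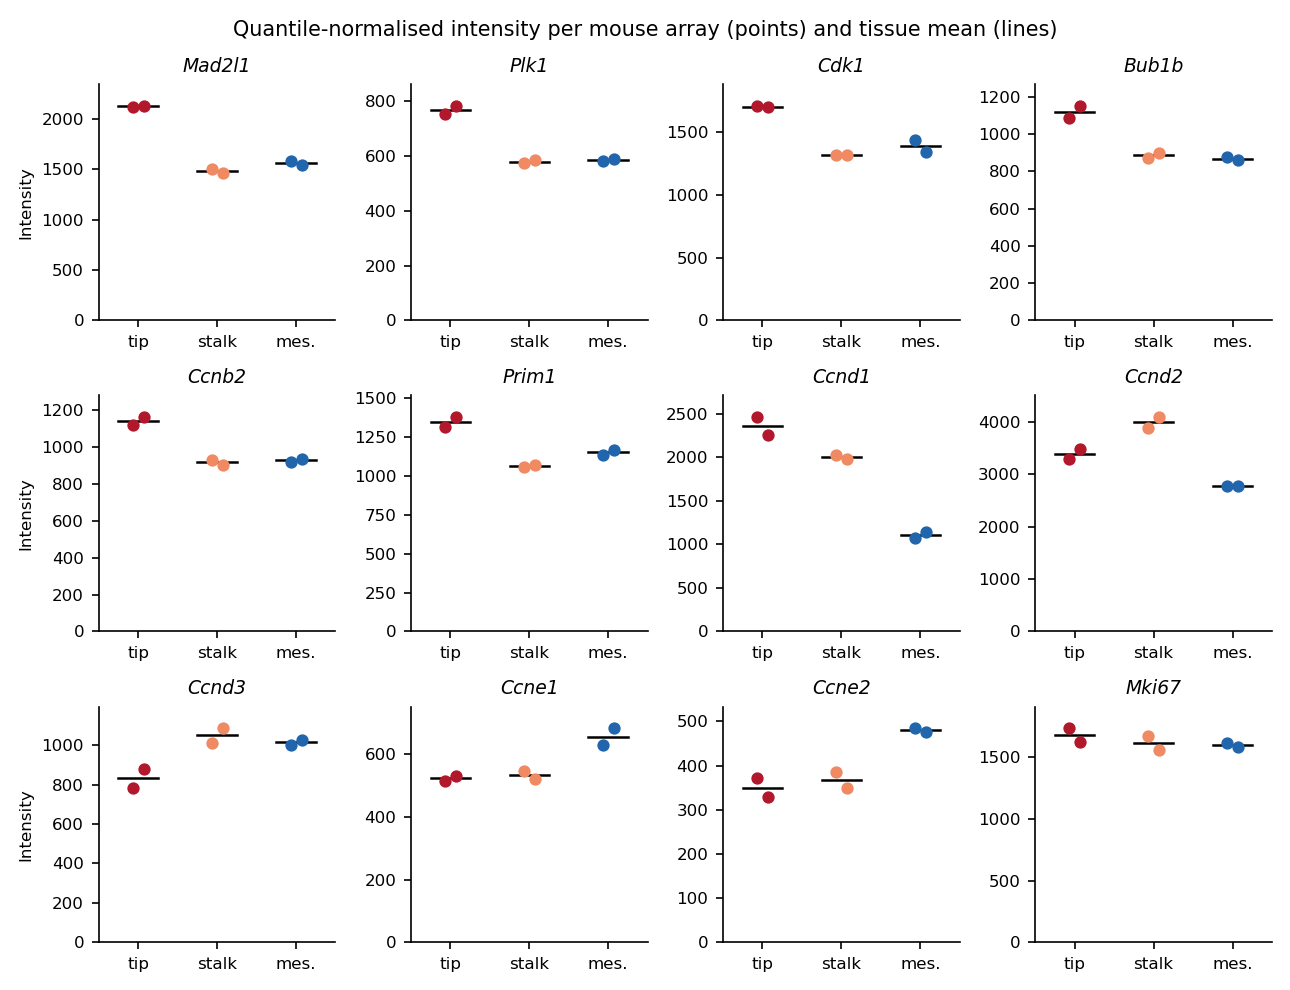
Quantile-normalised intensity (y axis, from 0) of 12 genes in each mouse array (points) with the tissue mean (line), for tips, stalks and mesenchyme (mes.) from left to right. Mad2l1 stands at 2121 and 2128 in tips against 1459 to 1581 in the other arrays, and Ccnd1 steps down through the 3 tissues.

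Further genes of both processes, from lists that do not overlap the 48, were counted in mouse. Of 32 other replication genes on the array, 13 were higher and 0 lower in tips than in stalks, with a median of 0.18, beside 15.9% and 17.2% of all tested genes. Against mesenchyme 7 were higher and 4 lower in tips, beside 18.4% and 20.1%, and 0 were higher and 5 lower in stalks, beside 9.91% and 5.71%. In the stalk comparison 10 of the 32 had an unadjusted p under 0.05, beside 28.6% of all tested genes. Of 38 other mitotic genes, 18 were higher and 0 lower in tips than in stalks (median 0.21), 18 higher and 1 lower in tips than in mesenchyme, and 2 higher and 2 lower in stalks than in mesenchyme, against the same shares over all genes. Several of these counts lay near those shares. Cdc25b, the phosphatase that activates Cdk1 at mitotic entry, had 402 and 384 in tips, against 127 and 116 in mesenchyme and was higher in tips than in mesenchyme by 1.57 (adjusted p = 1.31e-06), and it was higher in stalks than in mesenchyme by 1.24. Dut, which removes dUTP from the nucleotide pool, had 880.1 and 857 in stalks, against 1390.4 and 1302 in mesenchyme, a stalk to mesenchyme difference of -0.62 (adjusted p = 5.59e-05).

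In rat, whole buds were compared with mesenchyme on 3 array designs, each fitted on its own. On the first design 1 of 23 tested genes was higher and 1 lower in buds, where 6.48% of all tested genes were higher and 5.04% lower. Ccnd1 had 1328 and 1463 in buds, against 595 and 572 in mesenchyme, giving a log2 difference of 1.23 (SE 0.13, adjusted p = 0.00166). Without the second bud labeling its difference was 1.16. Of its 3 other tested probe sets, 1 was also higher, by 0.77, and the other two differed by 0.17 and 0.080 without passing. Ccnd3 had 1008 and 1037 in buds, against 1738 and 1990.5 in mesenchyme, giving a difference of -0.85 (SE 0.13, adjusted p = 0.00869). Without the second bud labeling its difference was -0.89. Both bud arrays lay far below both mesenchyme arrays, although its adjusted p was 0.0505 without mesenchyme array 1 and 0.111 without mesenchyme array 2.

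The replication and mitotic genes of the first design did not pass, and the bud labelings of several lay far apart. Pcna had 3717 and 4748 in buds, against 3173 and 3408 in mesenchyme, giving a difference of 0.35 (adjusted p = 0.205) and of 0.17 (adjusted p = 0.403) without the second bud labeling. Ccnb1, the cyclin of mitotic entry that had no probe set of its own in mouse, had 1029.8 and 1227 in buds, against 870.0 and 892 in mesenchyme. Its difference was 0.35 (adjusted p = 0.181), and 0.21 without the second bud labeling. In both, the bud arrays lay above the mesenchyme arrays, as for 33% of all tested genes. Ccnd2 had 577 and 517 in buds, against 761 and 604 in mesenchyme, giving a difference of -0.30 (adjusted p = 0.284), while its other probe set was lower in buds, with a difference of -0.88 (adjusted p = 0.0411). Bub1b had 307 and 460.1 in buds, against 249 and 218 in mesenchyme, giving a difference of 0.65 (adjusted p = 0.0913). Without the second bud labeling its difference was 0.37. Top2a had 1853 and 2679 in buds, against 1597 and 1686 in mesenchyme, giving a difference of 0.44 (adjusted p = 0.206). Without the second bud labeling that difference was 0.18. The 2 other Top2a probe sets differed in the opposite direction, by -1.63 and -0.83. Those 2 probe sets read 278.6 and 679 in the first bud labeling, 74.9 and 246 in the second bud labeling, and 469.98 to 514 and 709 to 779.6 in mesenchyme. With either bud labeling left out, more genes were called in both directions, among the tested genes of the list and among all tested genes. Without the first, buds rested on the labeling with the high 3′ to 5′ ratio alone. With either mesenchyme array left out, no gene of the list was called lower, and fewer of all tested genes were.

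The remaining first-design genes spread on both sides of 0. Mcm5, Mcm6 and Mcm7 had differences of 0.29, 0.022 and -0.21, the clamp loader genes Rfc1 and Rfc4 had 0.036 and 0.028, and Pola2, Pold1, Prim1, Prim2 and Timeless lay between -0.20 and 0.18. Cdk1, Cdc20, Aurkb and Plk1 had 0.20, 0.13, 0.14 and -0.019, Tyms had -0.42 and Ccne1 -0.19. None of these passed, and Kif11 and Pola1 were too dim to be tested. Without the second bud labeling, the Tyms difference was -0.58.

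On design B 2 of 9 tested genes were higher and 0 lower by limma, where 10.3% of all tested genes were higher and 7.1% lower, and 3 of the 9 had an unadjusted p under 0.05, near the 32.8% of all tested genes. Mki67 had 1103 and 1453 in buds, against 522 and 655 in mesenchyme, giving a difference of 1.09 (SE 0.19, adjusted p = 0.0126). Without the second bud labeling its difference was 0.89. Ccnd1 had 1084 and 965 in buds, against 636 and 556 in mesenchyme, giving a difference of 0.77 (SE 0.13, adjusted p = 0.014). Without the second bud labeling its difference was 0.85. In both genes the bud arrays lay well above the mesenchyme arrays. Ccnb2, Aurka and Rrm1 had differences of 0.52, 0.29 and 0.18 without passing, and their bud arrays lay above the mesenchyme arrays, as for 34.5% of all tested genes, and Ccna2, Ccne2, Rfc2 and Rrm2 lay between 0.094 and 0.14. Kif11, Mad2l1 and Gins1 were too dim to be tested, so Mad2l1, with the largest tip to stalk difference in mouse, has no rat test. With either mesenchyme array left out, fewer of these genes and fewer of all tested genes were called higher. Without mesenchyme array 1 neither Mki67 nor Ccnd1 was called, and without mesenchyme array 2 Ccnd1 was not.

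On design C 1 of 13 tested genes was higher and 1 lower in buds, where 6.14% of all tested genes were higher and 4.56% lower. Pola1, the catalytic subunit of polymerase alpha, had 164 and 177 in buds, against 103 and 106 in mesenchyme, giving a difference of 0.63 (SE 0.10, adjusted p = 0.022), and 0.58 (adjusted p = 0.0532) without the second bud labeling. Ccne1 had 471 and 454 in buds, against 796 and 653 in mesenchyme, giving a difference of -0.62 (SE 0.14, adjusted p = 0.0489), and -0.59 (adjusted p = 0.107) without that labeling. In both genes the bud and mesenchyme arrays did not overlap, as in 62.6% of all tested genes. Each call was lost without either mesenchyme array, where Pola1 had an adjusted p of 0.213 and 0.176 and Ccne1 of 0.296 and 0.141, and Ccne1 had 0.0637 without the first bud labeling. Without the first bud labeling more genes were called higher, among the tested genes of the list and among all tested genes.

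Mcm2 had 1201 and 1626 in buds, against 1116 and 1196 in mesenchyme on design C, a difference of 0.27 (adjusted p = 0.363) and of 0.059 (adjusted p = 0.789) without the second bud labeling. Ccnd3 had 936 and 1233 in buds, against 1129.7 and 1331 in mesenchyme, giving a difference of -0.19 (adjusted p = 0.519), with overlapping arrays. The first design and design C thus gave Ccnd3 differences of -0.85 and -0.19 with different probe sets. Mcm3, Mcm4, Mcm10 and Cdt1 had 0.22, -0.18, 0.057 and 0.31, Rfc3 and Rfc5 0.0065 and 0.31, Prim2 0.22, and the spindle motor Kif20a 0.45, none past the test. Cdc20 had 500.3 and 307 in buds, against 653 and 669 in mesenchyme, giving a difference of -0.73 (adjusted p = 0.117), on the other side of 0 from its probe set on the first design.

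**Figure D5:**
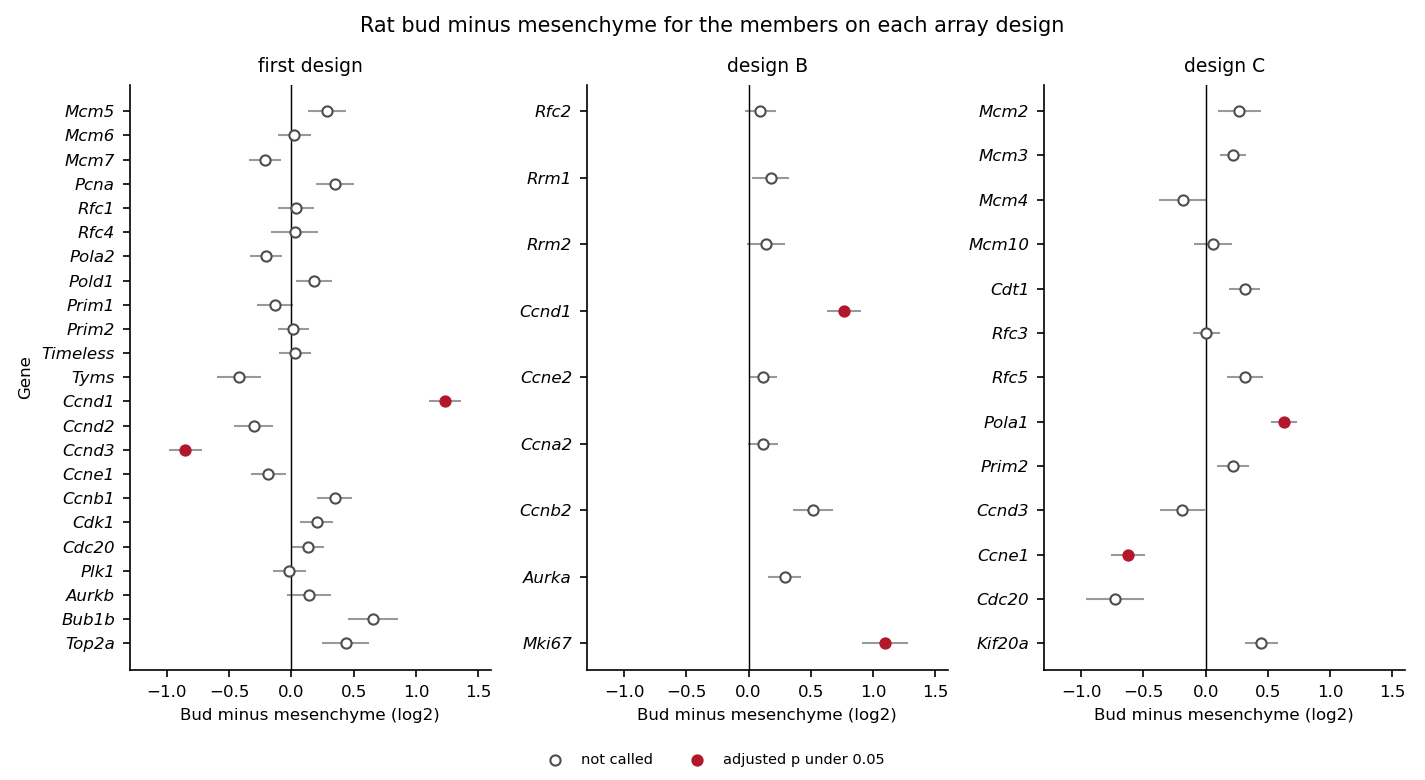
Bud minus mesenchyme difference in log2 intensity (x axis) of each gene (rows) on the first rat design, design B and design C, with filled points for genes that passed the test and horizontal bars for 1 SE. Ccnd1 is highest on the first design at 1.23, Mki67 on design B at 1.09 and Pola1 on design C at 0.63.

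Probe sets of 1 gene did not always agree. In mouse 30 of the genes had several tested probe sets, and all of a gene's probe sets had the same sign in 24 of 30 genes for tip with stalk, 19 for tip with mesenchyme and 26 for stalk with mesenchyme. On the first rat design this held for 6 of 12 genes and on design B for 0 of 1. Mcm10, called higher in tips in both tip comparisons, was among the genes of mixed sign in each. In 0 of these genes were probe sets called in opposite directions.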

How the data were processed

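The deposited values are linear intensities per probe set and array, in 4 tables (mouse and 3 rat designs). How the authors summarised and scaled them is not given in the sources used here. Per the labels, 1 ug of RNA was labelled, with 2 labelings for each RNA. Intensities were quantile normalised within a table and taken as log2(intensity + 16), which understates changes of dim genes. A probe set was tested if a tissue mean reached the table's median (49.5 in mouse, 111, 118 and 115 in rat), leaving 23937 mouse and 4629, 4667 and 4666 rat probe sets. limma 3.58.1 in R 4.3.3 (lmFit, eBayes with intensity trend) was fitted to the 6 mouse arrays together and to each rat table. P-values were Benjamini-Hochberg adjusted over all tested probe sets, and a call is an adjusted p under 0.05. The steps were tested on simulated data.

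Percentages over all genes count each tested gene once, by its representative. Values in every array are given for the 6 called genes with the largest difference per comparison and for Pcna, Mcm2, Mki67, Top2a, Ccnb1 and the D cyclins, and at most 4 genes of other lists are named per comparison. The genes, lists and tests were chosen with earlier results of these data known. Alternatives were deposited values, a pseudocount of 64, no filter, all probe sets averaged, no trend, a 2-fold rule, the labeling number as a block and leaving out each array.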

Additional observations from a re-analysis of the deposited data

Results flagged for a closer look

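Setting mouse and rat side by side covered 44 pairs of a gene and a rat design, and 5 further pairs of rat designs that held the same gene. In 5 cases every array of one setting lay on one side of mesenchyme and every array of the other setting on the opposite side. Arrays apart from mesenchyme were common: 63.8% of all tested genes in mouse tips, 62.1% in mouse stalks and 56.2% to 64.3% on the rat designs. The share of all genes with such opposite sides was not counted. None of these differences between settings was tested, and the stages, the tissues (tips and stalks in mouse, whole buds in rat) and the probe sets differ between them.

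Cdt1, which loads the replicative helicase, was lower in both mouse bud tissues than in mesenchyme, at -0.34 in tips and -0.17 in stalks, and was at 0.31 in rat buds on design C. Prim2, a primase subunit, was at -0.23 in mouse tips and -0.18 in mouse stalks, and at 0.22 in rat buds on design C, while its probe set on the first rat design gave 0.014 with overlapping arrays. Ccne2, cyclin E2, was at -0.44 in mouse tips and -0.38 in mouse stalks, and at 0.12 in rat buds on design B. Ccnd2, cyclin D2, was at 0.29 in mouse tips and 0.52 in mouse stalks, and at -0.30 in rat buds on the first design. Within rat, Cdc20 was at 0.13 on the first design and at -0.73 on design C, where the second bud labeling, with its high 3′ to 5′ ratio, read 307 and the first 500.3. Without the second bud labeling the design C difference of Cdc20 was -0.39 (adjusted p = 0.115), that of Cdt1 0.21 (adjusted p = 0.311) and the first-design difference of Ccnd2 -0.22 (adjusted p = 0.3). None of the rat differences named here passed the limma test. In mouse, the Prim2 differences in tips and stalks and the Cdt1 difference in stalks did not pass either. The tested mouse probe sets of Prim2 also differed in sign between tips and mesenchyme.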

How the results depend on the processing

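Direction held for every called gene of the 48 in each comparison under every alternative run, and calls were lost often. Called under all 12 mouse alternatives at adjusted p under 0.05 were 6 of 23 genes for tip with stalk (Mad2l1, Plk1, Cdk1, Bub1b, Ccnb2 and Prim1), 7 of 20 for tip with mesenchyme (Mad2l1, Plk1, Cdk1, Bub1b, Ccnb2, Ccnd1 and Ccne2) and 2 of 6 for stalk with mesenchyme (Ccnd1 and Ccnd2). In rat, Ccnd1 on the first design was called under all 10, and 0 genes were on designs B and C. Of the other genes named, Btg1 turned in tips against stalks when all its probe sets were averaged (-0.016). Brackets after the next counts give the percent of all tested genes called in that direction in the same run. With values as deposited, tip with stalk gave 9 higher (7.5%) and tip with mesenchyme 8 higher (13.3%) and 4 lower (14.9%). Stalk with mesenchyme gave 1 lower (2.73%) and design C 0 lower (3.79%). Without the intensity trend, tip with stalk gave 8 higher (about 13%) and 1 lower (14.2%). Tip with mesenchyme then gave 8 higher (15.7%) and 3 lower (17.3%), and stalk with mesenchyme 0 lower (3.5%). For tip with stalk, the higher genes thus fell from 21 to 8 of 47, and the share of all tested genes fell less, from 15.9%. The 8 of 47 without the trend lay closer to the share of all tested genes than the 21 of 47 with it. Averaging all probe sets of a gene gave 1 lower (15.1%) for tip with stalk and 3 lower (18.5%) for tip with mesenchyme. Design C without the filter gave 0 lower (3.14%). Requiring 2-fold left 0 in each direction except 1 higher for tip with mesenchyme, on the first rat design and on design B. Leaving out each array gave 8 to 21 higher and 1 to 4 lower for tip with stalk, 11 to 14 and 4 to 7 for tip with mesenchyme, and 2 higher and 1 to 6 lower for stalk with mesenchyme. In rat it gave 1 to 7 higher and 0 to 2 lower on the first design, 0 to 3 higher and 0 lower on design B, and 0 to 3 higher and 0 to 1 lower on design C. With the labeling number as a replicate block, tip with stalk gave 31 higher (24.4%) and tip with mesenchyme 16 higher (22.8%) and 8 lower (24.9%). Stalk with mesenchyme then gave 2 higher (13.9%) and 8 lower (11.7%), and the first rat design 2 higher (10.6%) and 2 lower (8.79%). The labels do not say what same-numbered arrays share, and their deviations correlated at 0.42 to 0.57 in mouse and 0.22 to 0.31 in rat, a hint from 2 numbers that the reported results do not use. Several of these shifts, as with a stalk array left out or with the block, came with a shift in the same direction among all tested genes. The causes of these shifts were not tested. With 2 arrays per tissue, changes of the size seen here lie near the limit of the test.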

Other observations

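Among genes that restrain or tune the cycle, a few had 2-fold differences between tissues. Cdkn1c, a cyclin-dependent kinase inhibitor (p57), had intensities of 1314 and 1162 in tips, against 3173 and 3116 in stalks, giving a log2 difference of -1.34 (adjusted p = 6.50e-07), and was also lower in tips than in mesenchyme, at -1.59. In rat, on design B, it had 520.3 and 607 in buds, against 3691 and 3162 in mesenchyme, giving a difference of -2.57 (adjusted p = 0.000273). The mouse tip arrays lay below the stalk and mesenchyme arrays, and the rat bud arrays of design B below the mesenchyme arrays, without overlap, while its probe set on the first rat design had 119 and 112 in buds, against 115 and 128 in mesenchyme, with overlapping arrays. Cdkn1a, the p21 inhibitor, lay on the other side, with 459 and 464 in tips, against 105 and 117 in mesenchyme, giving a difference of 1.91 (adjusted p = 3.18e-07), and it was higher in stalks than in mesenchyme by 1.59.

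Mycn, a transcription factor gene of proliferating progenitors, had 1003 and 1101 in tips, against 552 and 568 in stalks, giving a difference of 0.89 (adjusted p = 1.28e-05). Cdk6, a partner of the D cyclins, fell in tips, with 184 and 175 in tips, against 329 and 322 in stalks and a difference of -0.81 (adjusted p = 0.000298), and E2f8, an E2F family repressor, was higher by 0.72. Of 25 tested regulators, 7 were higher and 6 lower in tips than in stalks, beside 15.9% and 17.2% of all tested genes. Btg2, an antiproliferative gene, was higher in stalks than in mesenchyme by 0.77, and Ccng2, cyclin G2, was lower in tips than in mesenchyme, at -0.69. In rat, Smc4, a condensin subunit, and Btg1 were higher in buds on the first design, by 1.26 and 1.01, and the mitotic kinase gene Ttk and the condensin gene Smc2 on design B, by 1.12 and 0.79.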
